A study of Homo sapiens with 9 samples.

Results

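The genes described here encode proteins that assemble the mitotic spindle and divide the cell in cytokinesis: TPX2, DLGAP5, NUSAP1, HMMR, ASPM, CKAP2, PRC1, ECT2, ANLN and RACGAP1. They were chosen by name, with earlier results of these data known. Counts of calls set beside the share over all clusters are therefore a description only. A gene counted as measured where a transcript cluster of the array carried its symbol and no other. Of the 10 genes, 9 were measured, each by 1 cluster, among 22011 clusters in all. RACGAP1 was not measured, because both clusters that carry its symbol also carry that of its pseudogene RACGAP1P1. For CKAP2, 1 further cluster carries its symbol among several and was not read.

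Expression was measured in GM12878, a B-lymphoblastoid line made by Epstein-Barr virus transformation, so all cultures came from 1 line of 1 donor. Cells were seeded at 900000 per ml in medium with 15% serum, and 3 separate cultures per group were harvested untreated at 0 h or after 8 h or 24 h with 10 µM D,L-sulforaphane, an isothiocyanate. The labels also name a DMSO vehicle, but no vehicle-treated array was used here and none was kept 8 or 24 h without sulforaphane, so treatment and time in culture cannot be told apart. Each culture gave 1 Affymetrix Human Exon 1.0 ST array, and values are log2 signals, on which a difference of 1 is a 2-fold change.

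A dividing cell builds its spindle from microtubules that are nucleated and bundled at the chromosomes and poles. At anaphase the microtubules between the separating chromosomes are crosslinked into the central spindle, which directs RhoA to the cell equator, where an actomyosin ring closes. Many of these proteins are made only late in each cell cycle, from genes read in G2 and M phase through CHR elements and CCAAT boxes in their promoters, and are degraded as the cell leaves mitosis.

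Of the 9 genes, 4 fell at 24 h against 0 h, 0 rose and 5 did not pass the test (limma, Benjamini-Hochberg adjusted p below 0.05), where 0.791% of all clusters fell, 0.831% rose and 1.62% passed in either direction. None of the 9 passed at 8 h, where 0.595% of all clusters passed in either direction. TPX2 fell 2.04-fold, DLGAP5 2.23-fold, PRC1 1.85-fold and NUSAP1 1.63-fold. The median difference of the 9 genes was -0.71 at 24 h, against 0.017 over all clusters, and 0.078 at 8 h, against -0.012. Array signals come from whole cultures, so fewer cells in G2 or M phase and less of each RNA per cell cannot be told apart.

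The arrays carried the B-cell identity of the label. Of 10 B-cell markers 9 were measured, and all 9 lay above the median cluster, while 0 of 6 T-cell and 0 of 5 measured myeloid markers did. Of 4 fibroblast markers, COL1A1 did. The mean signal of the B-cell markers stayed between 11.53 and 11.72 on the 9 arrays, that of the T-cell markers between 6.26 and 6.54, that of the myeloid markers between 6.27 and 6.72 and that of the fibroblast markers between 6.84 and 7.03. The B-cell tyrosine kinase BLK was the 1 marker called at 24 h, where it rose by 0.44 ± 0.08 (SE; limma adjusted p = 0.038). Mean signal over all clusters ran from 7.97, on untreated replicate 2, to 8.14, and the untreated group had the widest replicate spread, with a median SD per cluster of 0.15 against 0.0912 (8 h) and 0.0919 (24 h). Untreated replicate 2 stood apart and touches several results below.

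The promoters are shown because CHR elements and CCAAT boxes are motifs by which genes of G2 and M phase are known to be read. Sequences are RefSeq's (GRCh38.p14), from 250 bases before to 50 bases after a transcript start, and 8 of the 9 measured genes had an entry. TPX2 had none. A CHR-type match was TTTGAA or TTCGAA and a CCAAT box was CCAAT, each on either strand, with overlapping matches counted. A CHR-type match was present in 7 of the 8 genes and in 16.4% of 34943 promoters, and a CCAAT box in 6 of the 8 and in 34.6%. Both kinds were present in 6 of the 8 and in 6.4% of promoters. Within 50 bases of the start, a window chosen after the matches were seen, 6 of the 8 genes and 5.03% of promoters had a CHR-type match. The 30-base windows around the match nearest the start are given for 5 genes, on the strand of the gene, with CHR-type matches in capitals.
DLGAP5: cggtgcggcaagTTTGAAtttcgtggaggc
NUSAP1: tggcgccagggaTTTGAAccgcgctgacga
PRC1: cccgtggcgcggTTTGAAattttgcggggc
ANLN: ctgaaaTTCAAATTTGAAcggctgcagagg
HMMR: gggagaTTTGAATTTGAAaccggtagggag

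These windows lie at chr14:55191565-55191594 (minus strand), chr15:41332882-41332911 (plus), chr15:90994538-90994567 (minus), chr7:36389830-36389859 (plus) and chr5:163460598-163460627 (plus). The match begins 20 bases before the start in PRC1, 26 and 20 bases before it in ANLN, 28 and 22 bases before it in HMMR, and in the transcribed part in DLGAP5 and NUSAP1. ANLN and HMMR each carry 2 matches that adjoin without a gap, in ANLN on opposite strands. ECT2 and ASPM carried matches too, in ASPM 1 match on the opposite strand, 113 bases before the start. Upstream stretches of 250 bases show the range from many matches to none, with CHR-type matches and CCAAT boxes in capitals.
DLGAP5: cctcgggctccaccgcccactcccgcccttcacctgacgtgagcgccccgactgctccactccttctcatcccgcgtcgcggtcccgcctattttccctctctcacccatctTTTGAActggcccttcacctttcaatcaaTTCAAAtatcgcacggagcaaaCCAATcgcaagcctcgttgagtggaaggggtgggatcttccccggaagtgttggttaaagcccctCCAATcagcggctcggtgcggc
HMMR: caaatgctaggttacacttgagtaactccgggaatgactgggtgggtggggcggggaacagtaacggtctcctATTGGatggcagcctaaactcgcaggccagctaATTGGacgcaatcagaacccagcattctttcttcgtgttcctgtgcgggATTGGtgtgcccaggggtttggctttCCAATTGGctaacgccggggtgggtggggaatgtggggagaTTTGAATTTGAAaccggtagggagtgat
CKAP2: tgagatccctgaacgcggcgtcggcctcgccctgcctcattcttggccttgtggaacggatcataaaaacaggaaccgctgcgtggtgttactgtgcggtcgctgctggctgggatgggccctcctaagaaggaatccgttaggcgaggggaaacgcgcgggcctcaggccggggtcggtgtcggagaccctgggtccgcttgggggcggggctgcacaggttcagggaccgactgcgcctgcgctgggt

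They lie at chr14:55191586-55191835 (minus strand), chr5:163460382-163460631 (plus) and chr13:52455738-52455987 (plus). DLGAP5, the gene with the largest difference at 24 h, has 3 CHR-type matches and 2 CCAAT boxes in its 300 bases. HMMR, with a difference of -0.52, has 2 and 5. ANLN (-0.97) has 2 and 0, PRC1 (-0.89) has 1 and 1, and NUSAP1 (-0.71) has 1 and 3. ASPM (-0.69) has 1 and 4, and ECT2 (-0.36) has 2 and 3 at the first of its starts. CKAP2, the gene with the smallest difference, has 0 and 0 in its window, which belongs to a start 510 bases inside the gene's annotated 5′ end. Whether the number of matches goes with the difference was not tested. A match is a run of letters and not a measured binding site, and these arrays do not bear on binding.

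**Figure D1:**
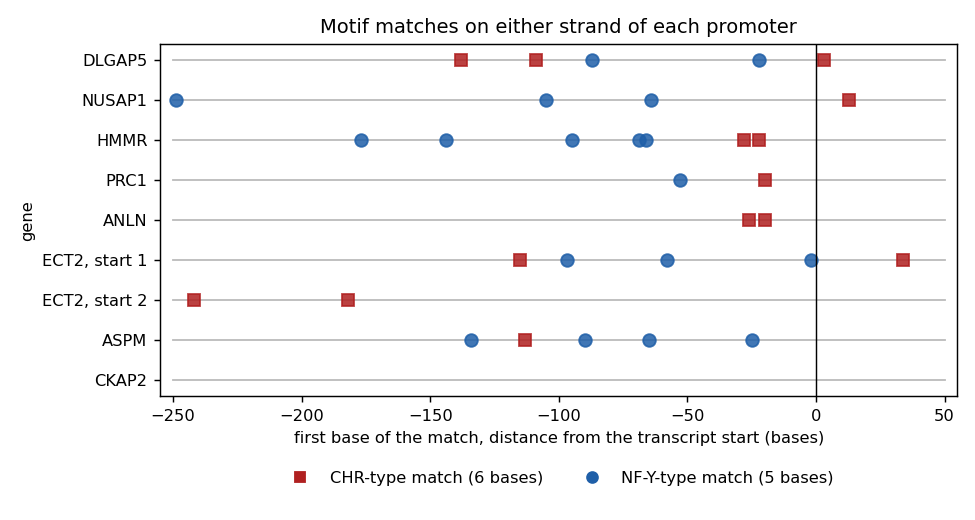
Position of each motif match (x axis, bases from the transcript start at 0, negative upstream) in the 9 promoter entries of 8 genes (y axis; ECT2 has 2 starts). Squares are CHR-type matches and circles CCAAT-type (NF-Y) matches; HMMR has 5 circles, ANLN only squares and CKAP2 neither.

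Among the genes of spindle assembly, TPX2, which activates Aurora A and nucleates microtubules around chromosomes, had the tightest values (cluster 3881443). Its log2 signals were 11.04, 10.90 and 10.88 on the untreated arrays, 11.05, 11.01 and 11.18 at 8 h, and 9.85, 9.92 and 9.96 at 24 h. All 24 h arrays lay below all others, and the 0 h and 8 h arrays overlapped. The difference at 24 h against 0 h was -1.03 ± 0.07 (SE, n = 3 per group; limma adjusted p = 0.0015), or 49.0% of the untreated level. TPX2 was called in each of the 9 fits that left out 1 array.

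DLGAP5, also known as HURP, stabilises the microtubule bundles that hold kinetochores (cluster 3565663). Its signals were 10.41, 10.20 and 10.15 untreated, 10.39, 10.08 and 10.49 at 8 h, and 8.96, 9.10 and 9.23 at 24 h. Again all 24 h arrays lay below the others, by a gap larger than the range within any group. The difference at 24 h against 0 h was -1.16 ± 0.13 (limma adjusted p = 0.012). The call was lost without untreated replicate 3 (adjusted p = 0.052) and without 24 h replicate 2 (adjusted p = 0.057).

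NUSAP1, which bundles microtubules close to chromosomes (cluster 3590388), read 11.22, 11.01 and 11.01 untreated, 11.20, 11.01 and 11.26 at 8 h, and 10.24, 10.44 and 10.44 at 24 h. No 24 h array overlapped the others. The difference at 24 h against 0 h was -0.71 ± 0.10 (limma adjusted p = 0.022). The call was lost when untreated replicate 3 was left out (adjusted p = 0.088), when 8 h replicate 1 was (adjusted p = 0.058), and when any of the 24 h arrays was (adjusted p between 0.059 and 0.091).

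HMMR, which binds TPX2 and helps hold spindle poles together (cluster 2838656), and ASPM, which focuses microtubule minus ends at the poles (cluster 2449559), spread more among the untreated arrays. HMMR read 9.28, 8.25 and 9.05 untreated, 9.30, 9.16 and 9.21 at 8 h, and 8.64, 7.99 and 8.39 at 24 h. Untreated replicate 2 fell among the 24 h arrays, and the difference of -0.52 ± 0.26 did not pass (limma adjusted p = 0.29). Single arrays moved its size both ways. It was -0.82 without untreated replicate 2 (adjusted p = 0.085), -0.31 without untreated replicate 1 (adjusted p = 0.42) and -0.35 without 24 h replicate 2 (adjusted p = 0.48), and it passed in none of these.

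ASPM read 9.30, 8.48 and 9.19 untreated, 9.23, 9.03 and 9.10 at 8 h, and 8.42, 8.10 and 8.39 at 24 h. The 24 h arrays lay below all others, but untreated replicate 2 was only just above them. The difference at 24 h against 0 h was -0.69 ± 0.20 and did not pass (limma adjusted p = 0.14). It was -0.94 without untreated replicate 2 and then passed (adjusted p = 0.020).

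CKAP2, a microtubule-associated protein of spindle and poles (cluster 3490655), moved least at 24 h. It read 9.98, 9.63 and 9.83 untreated, 10.10, 9.96 and 10.19 at 8 h, and 9.59, 9.58 and 9.61 at 24 h. Its 24 h arrays lay close together (SD 0.018) and below all others, next to untreated replicate 2. The difference was -0.22 ± 0.10 at 24 h against 0 h (limma adjusted p = 0.25), and its 95% interval, -0.45 to 0.0026, reached 0. Without untreated replicate 1 it was -0.14 (adjusted p = 0.31).

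Among the genes of the central spindle and cytokinesis, PRC1, which crosslinks antiparallel microtubules of the central spindle (cluster 3639031), read 10.20, 9.96 and 9.95 untreated, 10.14, 9.92 and 10.23 at 8 h, and 9.02, 9.17 and 9.25 at 24 h. All 24 h arrays were below the rest. The difference at 24 h against 0 h was -0.89 ± 0.11 (limma adjusted p = 0.016). The call was lost without untreated replicate 3 (adjusted p = 0.068) and without 24 h replicate 1 (0.068) or 2 (0.057).

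ANLN, or anillin, the scaffold that joins actin, myosin, septins and RhoA in the contractile ring (cluster 2997376), read 9.37, 8.60 and 9.26 untreated, 8.95, 8.77 and 8.84 at 8 h, and 8.07, 7.98 and 8.27 at 24 h. Its 24 h arrays were the lowest, and untreated replicate 2 lay below all 8 h arrays. The difference at 24 h against 0 h, -0.97 ± 0.19, was the third largest in size of the 9 and just missed the threshold (limma adjusted p = 0.051). Without untreated replicate 2 it was -1.21 and passed (adjusted p = 0.0072). It also passed under quantile normalization, median centring and both filters on dim clusters (adjusted p between 0.011 and 0.031). It did not pass when any other array was left out (adjusted p between 0.063 and 0.18). Nor did it pass when only the 2 groups were compared (adjusted p = 0.16). In all, ANLN was called in 8 of 19 alternatives.

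ECT2, the exchange factor that switches on RhoA at the equator (cluster 2652675), was the gene with the least separated groups. It read 8.34, 7.46 and 8.31 untreated, 8.07, 7.97 and 7.96 at 8 h, and 7.93, 7.48 and 7.62 at 24 h. Untreated replicate 2 was the lowest of all 9 arrays, so the 24 h and 0 h arrays overlapped. The difference of -0.36 ± 0.23 did not pass (limma adjusted p = 0.37). It was -0.65 without untreated replicate 2 (adjusted p = 0.065), -0.21 without untreated replicate 1 (adjusted p = 0.56) and -0.23 without untreated replicate 3 (adjusted p = 0.61), and did not pass in any of these.

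**Figure D2:**
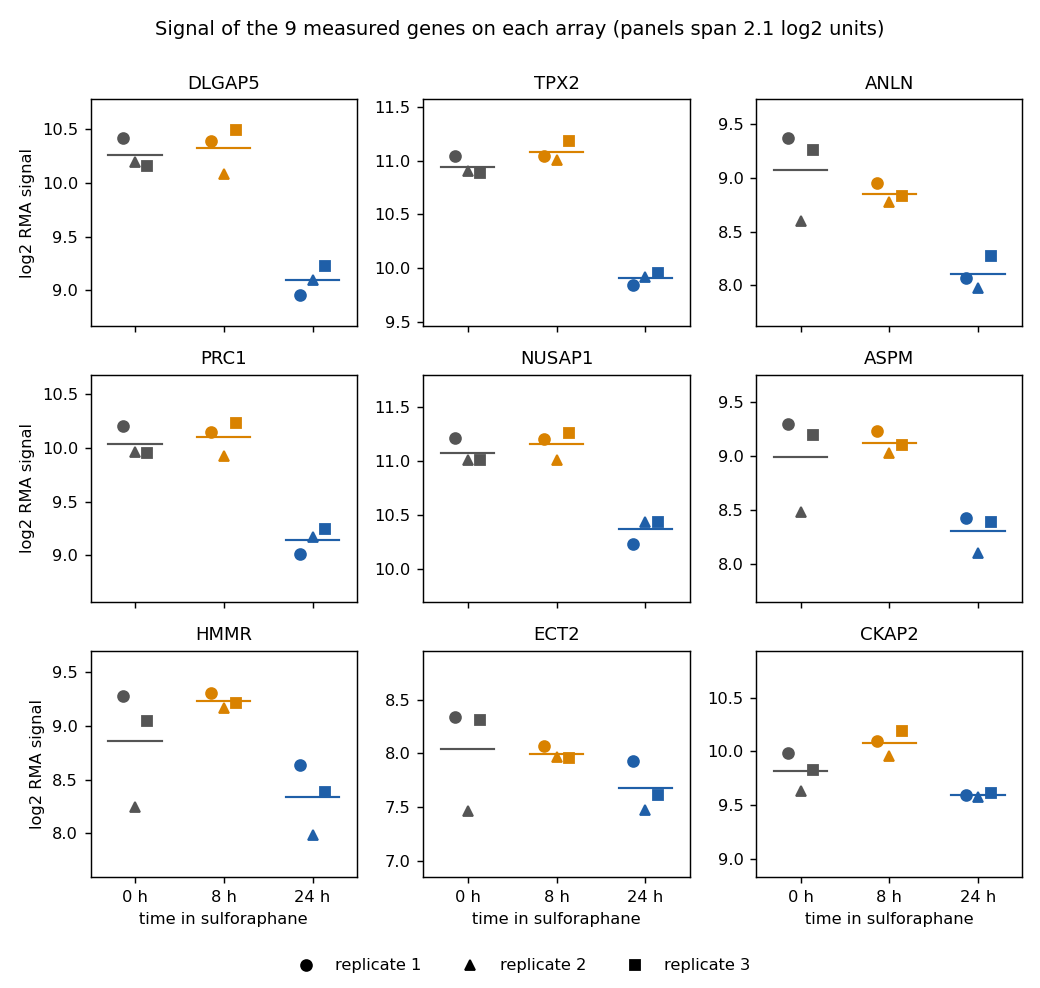
Log2 RMA signal (y axis, each panel spanning the same range) of the 9 measured genes on each array by time in sulforaphane (x axis). Symbols mark replicates 1 to 3 and lines group means; the 24 h arrays are lowest for 7 genes, while for HMMR and ECT2 untreated replicate 2 (grey triangle) lies among or below them.

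For 7 of the 9 genes, all but HMMR and ECT2, the 24 h arrays lay wholly below the untreated ones, as they did in 8.75% of all clusters, and for 0 of 9 wholly above, as in 15.6%. The 4 genes called at 24 h had SDs of 0.0858 to 0.142 among untreated arrays, and the 5 not called had 0.175 to 0.540. That spread enters the test behind the calls, so this split is a description only. Signal level differed too. The 4 called genes lay at percentiles 79 to 91 of all clusters by mean signal, CKAP2 at 80, and HMMR, ANLN, ECT2 and ASPM at 47 to 63. In HMMR, ECT2, ASPM and ANLN, untreated replicate 2 lay 0.91, 0.86, 0.76 and 0.71 below the mean of the other untreated arrays. In TPX2, DLGAP5, NUSAP1, PRC1 and CKAP2 it lay below by 0.061, 0.086, 0.10, 0.12 and 0.27. A gap of at least 0.5 below was present in 14.8% of all clusters, whose median gap was -0.035. What sets that array apart was not tested.

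The count of 4 genes depended on single arrays. Leaving out untreated replicate 2 gave 6, with ANLN and ASPM added. TPX2 alone passed when untreated replicate 3 or 24 h replicate 2 was left out, and TPX2 and DLGAP5 when 24 h replicate 1 was. TPX2, DLGAP5 and PRC1 passed when 8 h replicate 1 or 24 h replicate 3 was left out. Calls over all clusters also dropped without untreated replicate 3, from 357 to 21. All 9 differences stayed negative in each of these fits.

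At 8 h against 0 h none of the 9 genes passed (limma, smallest adjusted p = 0.26), where 0.595% of all clusters were called in either direction. One gene, CKAP2, had an unadjusted p under 0.05, at a difference of 0.26 ± 0.10 (95% interval 0.040 to 0.49). Signs were positive for 7 genes and negative for ANLN (-0.23 ± 0.19) and ECT2 (-0.039 ± 0.23). The largest difference was that of HMMR, 0.37 ± 0.26, which was 0.065 without untreated replicate 2. ASPM changed sign without that array, from 0.13 to -0.12. The groups overlapped for all 9 genes, where 8.55% of all clusters had every 8 h array below the untreated ones and 9.06% every one above, and the 95% intervals, from -0.66 to 0.97 over all of them, leave room for changes of either sign in the genes with the widest spread. For TPX2 the interval ran from -0.030 to 0.31.

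Between 8 h and 24 h the same 4 genes fell, TPX2 by 1.17 ± 0.07 (limma adjusted p = 0.0025), DLGAP5 by 1.22 ± 0.13 (adjusted p = 0.011), PRC1 by 0.95 ± 0.11 (adjusted p = 0.017) and NUSAP1 by 0.79 ± 0.10 (adjusted p = 0.025), where 0.227% of all clusters fell. The 24 h arrays lay wholly below the 8 h arrays in all 9 genes, as they did in 6.40% of clusters. The 8 h and 24 h arrays do not include untreated replicate 2, though the shared estimate of spread does. Among genes that did not pass, HMMR differed by -0.89 ± 0.26, ASPM by -0.82 ± 0.20, ANLN by -0.74 ± 0.19, CKAP2 by -0.49 ± 0.10 and ECT2 by -0.32 ± 0.23.

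Leaving out untreated replicate 2 raised the count from 8 h to 24 h to 7, adding ANLN, ASPM and CKAP2 (adjusted p = 0.024, 0.025 and 0.044). TPX2 was the 1 gene that passed when 8 h replicate 1 or 3, or 24 h replicate 1 or 2, was left out. TPX2 and DLGAP5 passed when 24 h replicate 3 was, and NUSAP1 dropped out when untreated replicate 3 was, which left 3.

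**Figure D3:**
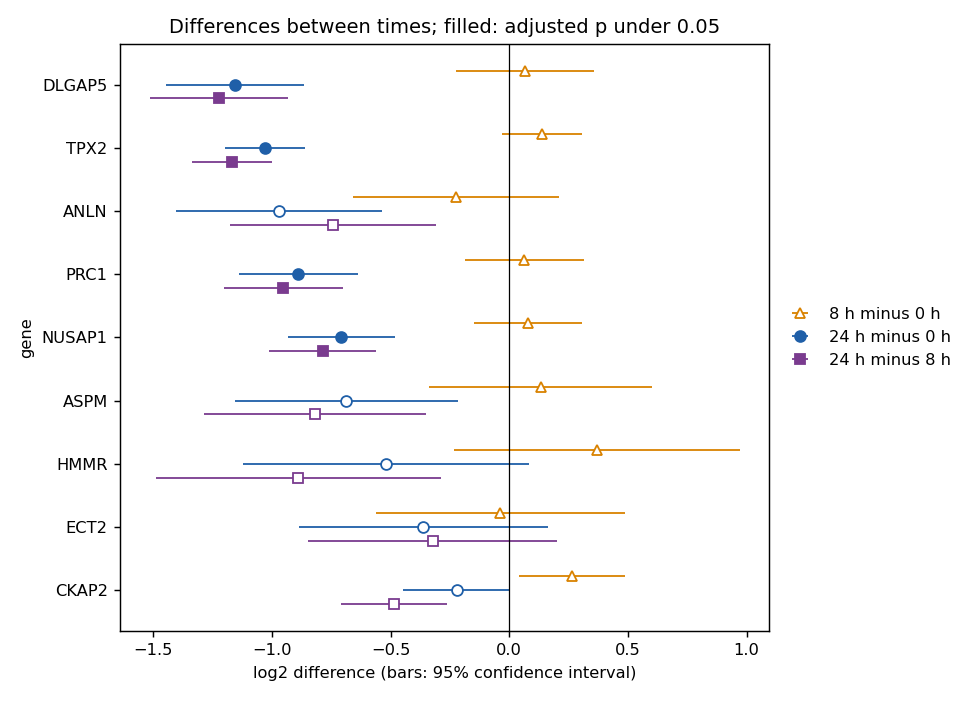
Log2 difference (x axis) with its 95% confidence interval for each of the 9 genes (y axis) at 8 h minus 0 h, 24 h minus 0 h and 24 h minus 8 h, n = 3 arrays per group. Filled symbols passed an adjusted p of 0.05: TPX2, DLGAP5, PRC1 and NUSAP1 in both comparisons with 24 h, and none at 8 h.

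A direct test asked whether the step from 8 h to 24 h differed from the step from 0 h to 8 h. It passed for TPX2, whose later step was lower by 1.31 ± 0.13 (limma adjusted p = 0.012), where 0.100% of clusters passed with a lower later step. That call did not survive leaving out untreated replicate 3, either of 8 h replicates 1 and 3, or either of 24 h replicates 2 and 3, each of which left 0 genes. DLGAP5 (-1.29 ± 0.22, adjusted p = 0.067), PRC1 (-1.02 ± 0.19, adjusted p = 0.085) and NUSAP1 (-0.86 ± 0.17, adjusted p = 0.10) did not pass. ANLN and ECT2 had the smallest differences between the steps, -0.52 ± 0.33 and -0.29 ± 0.40.

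Other genes of the process were read in 6 lists, also chosen with earlier results of these data known. Of their 89 genes, 64 were measured by a cluster of their own. At 24 h against 0 h, 12 of the 64 fell, 0 rose and 52 did not pass, against 0.791% of all clusters that fell. At 8 h 0 of 64 passed, where 0.595% of all clusters were called in either direction. From 8 h to 24 h 8 fell, against 0.227% of all clusters. Leaving out untreated replicate 3 reduced the 12 to 3, and leaving out any 24 h array reduced them to 4. Without untreated replicate 1, 11 fell and 1, the ESCRT gene TSG101, rose. The count was 6 when 8 h replicate 1 was dropped and 8 when 8 h replicate 3 was. Of the 8 that fell from 8 h, dropping 8 h replicate 1 left 2, 24 h replicate 2 left 3 and 8 h replicate 3 left 4. Dropping untreated replicate 3, 24 h replicate 1 or 24 h replicate 3 left 5, and dropping untreated replicate 2 gave 13. BARD1 and TUBB2B also fell at 8 h in the fit that lacked untreated replicate 2.

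The central spindle partners held the most calls for their number. Of 7 measured, 5 fell at 24 h, with a median difference of -0.73. They were PLK1, the kinase that recruits ECT2 to the central spindle (-1.40 ± 0.10, limma adjusted p = 0.0014), the passenger kinase AURKB (-1.34 ± 0.09, adjusted p = 0.0014), its targeting subunits CDCA8 (-0.91 ± 0.13, adjusted p = 0.026) and BIRC5 (-0.73 ± 0.09, adjusted p = 0.014), and INCENP, their scaffold, named after its values were seen. From 8 h to 24 h 4 of the 7 fell, all but CDCA8 of these. The partner of RACGAP1 in centralspindlin, KIF23, and the PRC1 partner KIF4A had no cluster of their own.

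Of 11 spindle assembly partners, 3 fell at 24 h: KIF11, the motor that pushes poles apart (-0.93 ± 0.16, limma adjusted p = 0.036), AURKA, the kinase that TPX2 activates (-0.73 ± 0.07, adjusted p = 0.0054), and GTSE1, a regulator of spindle microtubules (-0.69 ± 0.07, adjusted p = 0.0097). From 8 h to 24 h AURKA and GTSE1 fell. The list's median difference at 24 h was -0.42.

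Of 14 genes of the contractile ring, DIAPH3, a formin that builds actin filaments (-0.97 ± 0.14, limma adjusted p = 0.024), and CIT, citron kinase of the midbody ring (-0.85 ± 0.10, adjusted p = 0.014), fell at 24 h, and DIAPH3 fell from 8 h. The other 12, which include RHOA, myosins and septins that cells use throughout the cycle, did not pass, and the list median was -0.054. Of 13 genes of abscission, CEP55, which brings the ESCRT machinery to the midbody, fell at 24 h (-0.92 ± 0.12, adjusted p = 0.019) and from 8 h. The other 12, mostly ESCRT subunits, did not pass. Signs were positive in 10 of the 13, and the median was 0.24.

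None of 15 genes of spindle nucleation passed in any of the 3 comparisons (median -0.097 at 24 h). Over all clusters, 0.595% passed at 8 h, 1.62% at 24 h and 0.327% from 8 h to 24 h. With shares this small, a count of 0 among 15 says little about these genes. Those with the smallest p at 24 h were the augmin subunit HAUS8 (-0.31 ± 0.07, limma adjusted p = 0.077) and γ-tubulin TUBG1 (-0.21 ± 0.08, adjusted p = 0.22). Of 4 tubulins with a cluster of their own, TUBB2B fell at 24 h (-0.75 ± 0.13, adjusted p = 0.035). Its near-identical paralog TUBB2A had no such cluster, so which of the pair the signal reports is uncertain.

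**Figure D4:**
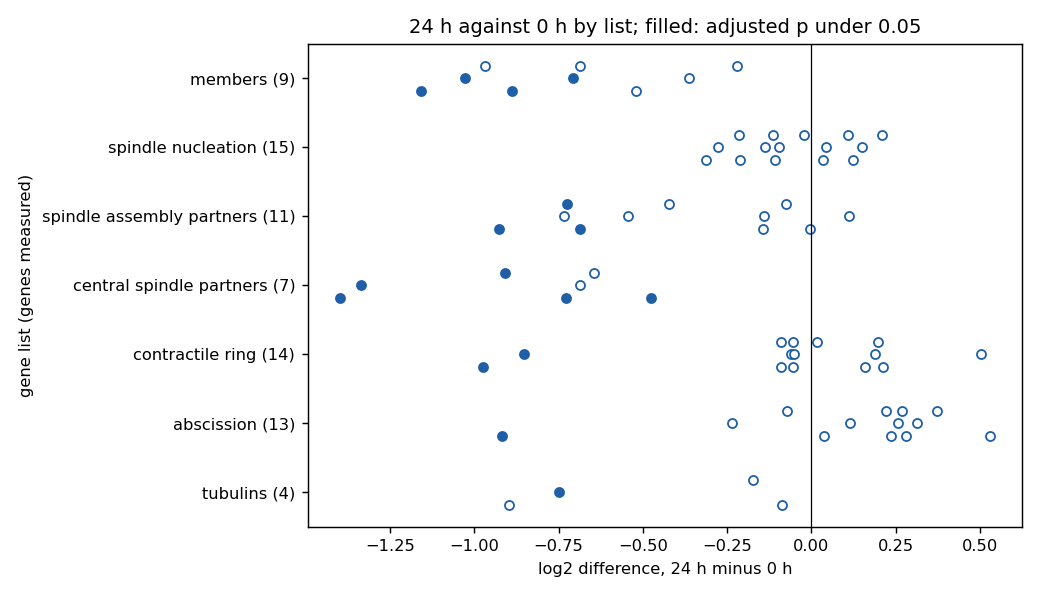
Log2 difference at 24 h minus 0 h (x axis) of the 9 measured genes described here (top row, members) and of 6 lists of other genes of spindle assembly and cytokinesis (y axis, genes measured in brackets). Filled points passed an adjusted p of 0.05, as did 1.62% of all clusters. They number 5 of 7 among central spindle partners and 0 of 15 in spindle nucleation.

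Profiles over the 9 arrays were compared as log2 values minus each gene's own mean, by the root mean square of the differences, so that a smaller value is more alike. Across 14232 genes, those nearest the mean profile of the 9 genes, leaving these out, were CENPA (0.077), KIF2C (0.082), BUB1 (0.10), CDKN3 (0.11), CDCA8 (0.11), GTSE1 (0.11), SKA1 (0.11) and TACC3 (0.12), and the median gene lay at 0.42. The 9 genes themselves lay between 0.11 for ASPM and 0.26 for ECT2. All profiles share the same arrays, so these values describe likeness on these arrays.

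Taken one by one, the nearest gene was TOP2A for TPX2 (0.090) and PRC1 (0.059), MKI67 for DLGAP5 (0.094), GTSE1 for NUSAP1 (0.083) and CENPE for HMMR (0.085). It was CDCA2 for ANLN (0.084), STIL for ECT2 (0.051), KIF14 for ASPM (0.055) and CPAP for CKAP2 (0.068). Since neighbours were picked by likeness on these same arrays, their differences follow from that choice and are given as a description only. At 24 h minus 0 h they ranged from -0.25 for CPAP to -1.29 for MKI67.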

How the data were processed

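The authors summarised probes per core transcript cluster by gene-level RMA and normalised them by sketch quantiles, using Affymetrix Expression Console, per the labels and the series' design text. The deposited values are log2 signals, 1 per cluster and array. The sources used here do not give software versions, annotation release or genome build. Of 22011 clusters, 14432 had 1 symbol, 2408 several and 5171 none. The cluster with the highest mean stood for a symbol.

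All clusters were fitted with limma 3.58.1 (R 4.3.3), 1 mean per group, with two-sided moderated tests and Benjamini-Hochberg adjustment over all 22011. The workflow was tested on simulated data, drawn independently with the same spread in all groups and no shift of whole arrays. That test does not bear on the wider untreated spread or on untreated replicate 2. Arrays give no counts, and their number limits precision. Named were all 10 members, up to 4 called genes of each list by size of change at 24 h (2 by smallest p where none was called), the 8 genes nearest the mean profile and each member's nearest gene. The members and lists were chosen with earlier results of these data known. Alternatives were a replicate block, 2 filters on dim clusters, quantile normalization, median centring, trended and robust eBayes, array weights, averaged same-symbol clusters, fits of only the 2 groups in a comparison, and each array left out in turn. One more, which estimated the weights by the gene-by-gene method, was chosen after seeing the data.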

Additional observations from a re-analysis of the deposited data

Results flagged for a closer look

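The effect of 24 h and that of 8 h, both against 0 h, differed in 4 genes by the direct limma test of 24 h against 8 h. This is the comparison already given above, in which 0.227% of all clusters fell. The effect at 24 h minus that at 8 h was -1.17 for TPX2, -1.22 for DLGAP5, -0.79 for NUSAP1 and -0.95 for PRC1 on the log2 scale. In each, 3 of 3 arrays at 24 h lay below all 8 h arrays, as in 6.40% of all clusters.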

How the results depend on the processing

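Leaving out 1 array gave between 1 and 6 called genes of the 9 at 24 h against 0 h, between 1 and 7 from 8 h to 24 h, and between 0 and 1 for the later step against the earlier. In the other lists it gave 0 to 2 lower at 8 h, 3 to 15 lower at 24 h and 2 to 13 lower from 8 h to 24 h. TSG101 was called higher at 24 h in the fit without untreated replicate 1. Fits of only the 2 groups compared called 2 of the 9 at 24 h and 1 from 8 h to 24 h, and 4 list genes in each, with fewer arrays behind the spread. Quantile normalization called 7 at 24 h. For the step test, quantile normalization called 4, median centring 2, the 25% filter 2 and the median filter 3. The median filter also called 1 list gene at 8 h, TUBB6, and removed ECT2. Default array weights stopped before they converged and gave untreated replicate 3 a weight of 29.8. They called 9603 of all 22011 clusters at 8 h, 9010 at 24 h, 1516 from 8 h to 24 h and 4425 for the step, against 131, 357, 72 and 44 in the main analysis. Among the 9 genes they called 2 lower and 5 higher at 8 h, then 9, 8 and 7 lower. In the lists they called 15 lower and 19 higher at 8 h, 29 lower and 13 higher at 24 h, and 19 lower and 0 higher from 8 h to 24 h. Weights fitted gene by gene, chosen after seeing the data, called 1703, 1889, 1325 and 1372 clusters in the same order. Of the 9 genes these were 0 at 8 h, 8 at 24 h, 8 from 8 h to 24 h and 7 for the step, all lower. Of the list genes they were 3 lower and 2 higher at 8 h, 18 and 2 at 24 h, and 19 and 0 from 8 h to 24 h. The cause of these shifts was not tested. Signs changed only at 8 h, in genes that did not pass: ASPM was -0.0085 with array weights, -0.024 with gene-by-gene weights and -0.12 to 0.29 without 1 array. Without 1 array, DLGAP5 ran from -0.018 to 0.19, PRC1 from -0.0010 to 0.15 and ECT2 from -0.33 to 0.11. TPX2 kept its calls at 24 h against 0 h and 8 h in all 19 alternatives.

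Whether replicate numbers pair the cultures was not settled. The deviations of same-numbered arrays correlated above 0.1 in 3 of 9 pairs, and 5 of 9 arrays correlated best with their own number. Between untreated and 24 h arrays the correlations were 0.39, 0.38 and 0.056 for replicates 1, 2 and 3. The main fit used no pairing. With a replicate block, 5 of the 9 genes were called at 24 h, 2 from 8 h to 24 h and 0 in the step test.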
